A study of Mus musculus with 15 samples.

Results

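Follistatin, the follistatin-like genes, the activin beta subunits, and the activin type II receptors were described across 3 genotypes in RNA-Seq data from E16.5 mouse brains. The 9 genes, Fst, Fstl1, Fstl3, Fstl4, Fstl5, Inhba, Inhbb, Acvr2a, and Acvr2b, were chosen by name from the 19475 genes of the normalized read count table. Fst was already known to be higher in Tbr1K228E/K228E than in WT mice when the list was drawn up, so that all comparisons of these 2 genotypes are descriptions of the 9 genes and not tests. All 9 genes were in the table, and all 9 passed the requirement of a mean normalized read count of at least 5.

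The samples were 15 C57BL/6J embryos, 5 each of WT, heterozygous Tbr1+/K228E, and homozygous Tbr1K228E/K228E mice, with 3 females and 2 males per genotype. K228E is a knock-in missense mutation in the DNA-binding T-box domain of TBR1, a transcription factor of early-born cortical neurons, and the neomycin cassette of the targeted allele had been removed by a cross to protamine-Cre mice. The mutation is germline and therefore not limited to one cell type. The labels and the methods name the tissue as brain, whereas the description of the RNA-Seq experiment in the study's results names forebrain. All 8 listed forebrain markers, such as Emx1 and Emx2, were detected, but whole brain would show them too. Hox genes of the hindbrain and spinal cord had mean log2 levels of 2.76 to 7.11 in 6 embryos.

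Activins are dimers of inhibin beta subunits that belong to the TGF-beta superfamily. They bind a type II receptor, ACVR2A or ACVR2B, which recruits and phosphorylates a type I receptor, and the type I receptor then phosphorylates SMAD2 and SMAD3. Follistatin binds activins outside the cell and blocks their access to the receptors, so the balance of these secreted proteins sets how much signal a cell receives. In the brain, Inhba is known as a gene induced by neuronal activity.

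Of the 9 genes, Fst and Inhba had the largest log2 fold changes between Tbr1K228E/K228E and WT mice, and both had increasing means from WT through Tbr1+/K228E to Tbr1K228E/K228E. The mean normalized read count of Fst was 103 ± 16.8 (SD, n = 5) in WT, 119 ± 14.9 in Tbr1+/K228E, and 170 ± 43.2 in Tbr1K228E/K228E mice. The mean of Inhba was 88.1 ± 27.9 in WT, 116 ± 30.4 in Tbr1+/K228E, and 159 ± 52.1 in Tbr1K228E/K228E mice. Neither gene passed the correction over all genes in the main limma fit, a linear model, in any comparison. The study, with DESeq2 and an estimated null distribution, did list Fst as upregulated in Tbr1K228E/K228E relative to WT mice. The study also placed Fst among the upregulated genes shared with earlier published lists from Tbr1-null mice and from mice with a layer-specific Tbr1 deletion. The data behind those earlier lists were not examined here. The limma fit called fewer genes in Tbr1K228E/K228E relative to WT mice than the study, 21 of 16507. In both genes, 1 homozygous embryo, replicate 2, lay in the WT range. The receptors Acvr2a and Acvr2b differed by at most 0.09 on the log2 scale between any 2 genotypes.

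**Figure D1:**
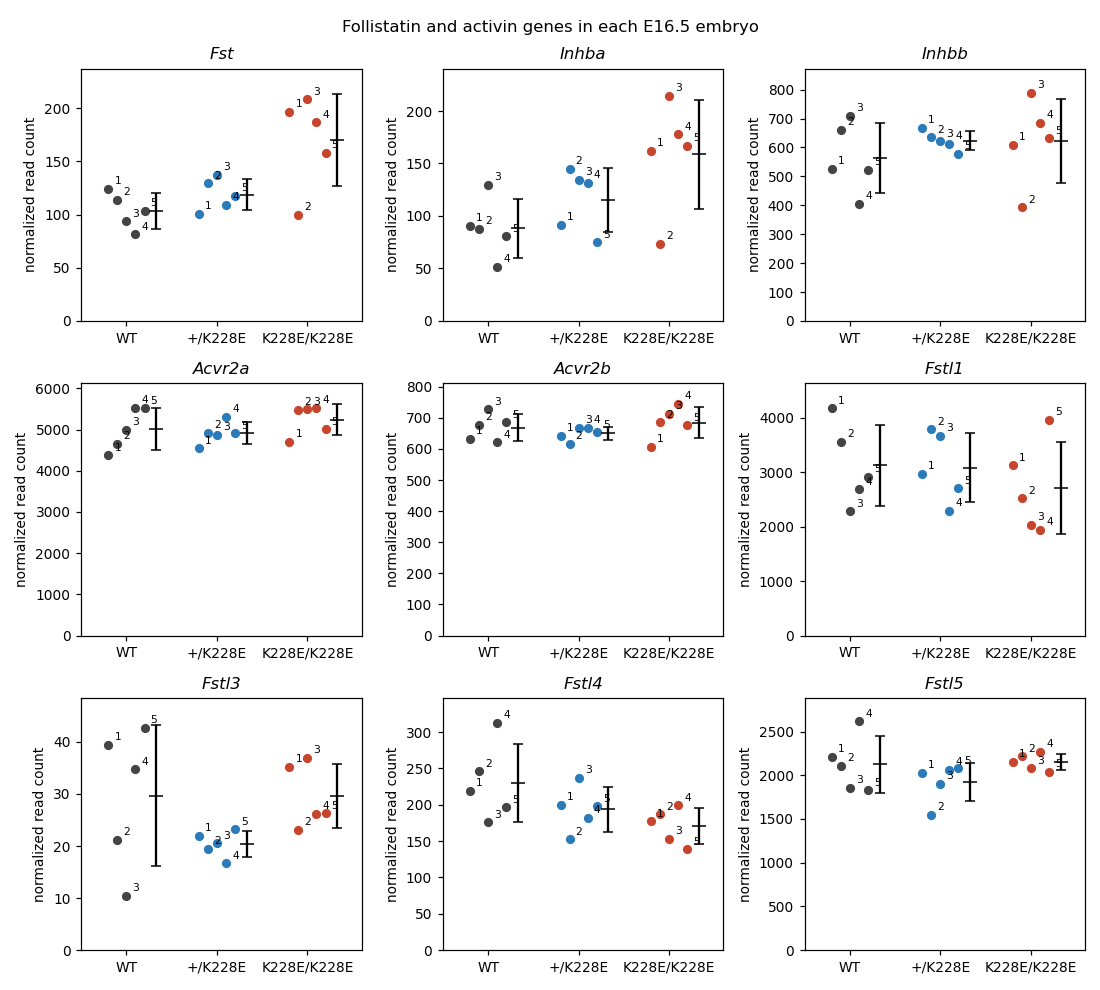
Normalized read counts (y axis, linear from 0) of the 9 genes in each of the 15 embryos, by genotype (x axis); points are embryos with their replicate numbers, and bars give mean ± SD of 5 embryos. For Fst and Inhba, 4 of 5 K228E/K228E embryos lie above all WT embryos and replicate 2 lies among them.

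Several facts about the libraries bear on these genes. Tbr1 itself had a mean normalized read count of 3537 in WT, 6269 in Tbr1+/K228E, and 11366 in Tbr1K228E/K228E mice, and every homozygous embryo exceeded every WT embryo. Normalized read counts summed to 30.5 to 31.8 M per embryo after scaling. The spacing of low values gave a rough depth of 26.3 to 38.0 M reads. Only 18.1% to 45.4% of the low values in an embryo lay close to whole multiples of this spacing, so the depth is uncertain. The mean log2 level of the forebrain markers was 10.4 in WT replicate 4 and 10.7 in Tbr1K228E/K228E replicate 2, and between 11.1 and 11.7 in the other 13 embryos. Scores of 10 meningeal genes were between 4.97 and 5.64 in WT replicate 3 and Tbr1K228E/K228E replicates 3 and 4, and between 8.03 and 10.3 in the other 12 embryos. The Hox genes of the hindbrain and spinal cord had a mean log2 level of at least 2.76 in 6 embryos and at most 1.31 in 9. The 6 embryos were WT replicates 1, 2, and 4, Tbr1+/K228E replicate 1, and Tbr1K228E/K228E replicates 1 and 2. They thus include WT replicate 4 and homozygous replicate 2, the embryos with the lowest forebrain scores. Each of 13 marker lists was compared between genotypes by exact permutation tests, and with 39 tests of 5 against 5 embryos a single list could not pass Benjamini–Hochberg correction, so their adjusted p says nothing on whether the lists differed. The layer 6 markers were lower in every homozygous than in every heterozygous embryo (difference in mean log2 level -0.24, exact permutation p = 0.00794, adjusted p = 0.31), and the layer 5 markers had a higher mean in homozygous than in WT mice (0.35, exact permutation p = 0.0317, adjusted p = 0.619). The layer 6 list held Tle4, Foxp2, Sox5, and Nfia, without Tbr1, and the study had already reported Nfia as downregulated in homozygous mice. All marker lists were chosen with earlier results of these data known, so these p are descriptions and not independent tests. Fits with the meningeal, Hox, or forebrain score as a covariate were among the alternative settings. Over all alternative settings, apart from single embryos left out, Fst in homozygous relative to WT mice gave log2 fold changes of 0.62 to 0.78. Inhba gave 0.68 to 0.90 in this comparison. How much of the values of the 9 genes reflects tissue composition was not tested. In these bulk samples, fewer cells of a type and less RNA per cell cannot be told apart.

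Fst (ENSMUSG00000021765, minus strand of chr13:114452290-114458951 in GRCm38) encodes the secreted antagonist follistatin. In WT embryos 1 to 5 its normalized read counts were 124, 114, 93.7, 81.5, and 104. In Tbr1+/K228E embryos they were 101, 129, 137, 109, and 118, and in Tbr1K228E/K228E embryos 196, 99.997, 208, 187, and 158. Thus 4 of 5 homozygous embryos were above all WT and all heterozygous embryos, whereas homozygous replicate 2 was below every heterozygous embryo and inside the WT range. Fst thus differed by 0.68 on the log2 scale (standard error 0.18) between Tbr1K228E/K228E and WT mice. Leaving out 1 embryo gave 0.60 to 0.86, with 0.86 without homozygous replicate 2 and 0.60 without either homozygous replicate 3 or WT replicate 4. Homozygous replicate 2 and WT replicate 4 also had the lowest forebrain scores of their genotypes, and the part of tissue composition in their Fst values was not tested.

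The comparisons with heterozygotes did not choose Fst, although they share embryos with the comparison that did. Between Tbr1+/K228E and WT mice the log2 fold change was 0.20 (95% interval -0.18 to 0.59), with 2 of 5 heterozygous embryos above all WT embryos (two-sided exact permutation test, p = 0.167; limma with Benjamini–Hochberg correction, adjusted p = 0.999). Between Tbr1K228E/K228E and Tbr1+/K228E mice it was 0.48 (95% interval 0.09 to 0.86), and the exact permutation p was 0.0635, above the 0.00794 that 5 against 5 embryos can reach. The adjusted p of limma for this difference was 0.996. The difference between heterozygotes and WT mice therefore lay within the spread of the embryos, and that between the mutant genotypes did not pass either threshold.

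Inhba (ENSMUSG00000041324, plus strand of chr13:16011851-16031621) encodes the beta A subunit, whose homodimer is activin A. Its normalized read counts in WT embryos 1 to 5 were 90.5, 88.0, 130, 51.8, and 80.7. They were 91.7, 145, 135, 131, and 75.0 in Tbr1+/K228E, and 162, 73.3, 214, 178, and 167 in Tbr1K228E/K228E embryos. Again 4 of 5 homozygous embryos were above all WT embryos, and replicate 2 was below 4 of 5 WT embryos. Homozygous mice differed from WT mice by 0.82 on the log2 scale (standard error 0.29). Leaving out 1 embryo gave 0.64 to 1.07, with the highest value without homozygous replicate 2 and the lowest without WT replicate 4.

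In Tbr1+/K228E relative to WT mice, 3 of 5 embryos exceeded all WT values of Inhba, with a log2 fold change of 0.40 (95% interval -0.21 to 1.01; exact permutation p = 0.206). Between homozygous and heterozygous mice the log2 fold change was 0.42 (95% interval -0.20 to 1.03; exact permutation p = 0.222). Neither difference was larger than the spread of the embryos, and both intervals also contain differences as large as that between homozygous and WT mice.

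Inhbb (ENSMUSG00000037035, minus strand of chr1:119415465-119422248) encodes the beta B subunit, which forms activin B or, with beta A, activin AB. Its normalized read counts were 526, 661, 709, 405, and 523 in WT, 668, 635, 622, 612, and 578 in Tbr1+/K228E, and 609, 394, 789, 685, and 631 in Tbr1K228E/K228E embryos. The 3 ranges overlapped, and the lowest values belonged to WT replicate 4 and homozygous replicate 2, the same embryos that were lowest in Inhba within their genotypes. For Inhbb, log2 fold changes were 0.13 in homozygous and 0.17 in heterozygous relative to WT mice (exact permutation p = 0.310 for the latter), and -0.04 between the mutant genotypes (exact permutation p = 0.889).

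Because Inhba and Inhbb both varied with Tbr1 between embryos, the 250 bases before their RefSeq start sites (GRCm38.p6) are shown, 5′ to 3′ on the strand of the gene. They are chr13:16011601-16011850 (plus strand) and chr1:119422249-119422498 (minus strand). Capitals mark TATAAA or its reverse complement TTTATA.

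Inhba upstream: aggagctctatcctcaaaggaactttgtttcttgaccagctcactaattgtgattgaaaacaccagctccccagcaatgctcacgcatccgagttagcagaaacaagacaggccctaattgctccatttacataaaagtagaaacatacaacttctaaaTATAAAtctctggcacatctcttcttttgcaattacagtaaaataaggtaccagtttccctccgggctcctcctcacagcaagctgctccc

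Inhbb upstream: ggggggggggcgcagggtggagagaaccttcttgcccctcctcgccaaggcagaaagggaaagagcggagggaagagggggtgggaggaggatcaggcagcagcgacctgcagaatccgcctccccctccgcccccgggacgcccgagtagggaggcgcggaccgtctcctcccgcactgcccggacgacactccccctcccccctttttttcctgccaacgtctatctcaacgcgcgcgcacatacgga

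Inhba had TATAAA beginning 91 bases before the start site and a GC content of 43.2%, whereas Inhbb had no such match and a GC content of 68%, with 52.4% as the median of all promoters. Among the other genes, Fstl3 had a match 29 bases and the first start site of Fstl5 a match 243 bases before the start. In windows of this length, TATAAA or its complement occurred in 12.4% of 32851 promoters, and this motif was added after the sequences were seen. The T-box sequence AGGTGTGA and the SMAD element GTCTAGAC, each searched on both strands, were in none of the windows of the 8 matched genes, against 1.12% and 0.167% of all promoters. GTGTGA, the last letters of that T-box sequence, occurred in 12.3% of all promoters and, among the 8 genes, in the window of the second start site of Fstl5 alone. Fst had no entry among the promoter sequences. Missing letters in these windows say nothing on factor binding.

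The final 80 bases of that Fstl5 window, chr3:76075503-76075582 (plus strand), are shown for the position of the match, with the reverse complement TCACAC in capitals.

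Fstl5 second start, upstream: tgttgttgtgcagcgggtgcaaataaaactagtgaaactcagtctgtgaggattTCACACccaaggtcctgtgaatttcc

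The match began 26 bases before the start site. Fstl5 (ENSMUSG00000034098, plus strand of chr3:76074270-76710019) encodes a secreted follistatin-like protein with a follistatin-type domain. Its normalized read counts were 2213, 2106, 1856, 2619, and 1826 in WT, 2027, 1549, 1903, 2062, and 2079 in Tbr1+/K228E, and 2155, 2215, 2080, 2265, and 2040 in Tbr1K228E/K228E embryos. The homozygous embryos lay inside the WT range, with a log2 fold change of 0.03, and 4 of 5 were above all heterozygous embryos. Between the mutant genotypes Fstl5 differed by 0.17 on the log2 scale (exact permutation p = 0.0317), and it did not pass correction over all genes in limma (adjusted p = 0.996). Heterozygous and WT mice gave a log2 fold change of -0.14 (exact permutation p = 0.341).

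Fstl1 (ENSMUSG00000022816, plus strand of chr16:37776873-37836514) encodes a secreted glycoprotein with a follistatin-type domain that is strongly expressed in mesenchyme. Its normalized read counts were 4180, 3563, 2285, 2690, and 2917 in WT, 2970, 3788, 3673, 2291, and 2710 in Tbr1+/K228E, and 3129, 2519, 2034, 1939, and 3971 in Tbr1K228E/K228E embryos. The lowest values of the WT and homozygous groups came from the 3 embryos with the lowest meningeal scores. Log2 fold changes of Fstl1 were -0.22 in homozygous and -0.01 in heterozygous relative to WT mice, and -0.21 between the mutant genotypes (exact permutation p = 0.976 and p = 0.389 for the last 2). With the meningeal score in the fit the last difference was 0.02.

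Fstl3 (ENSMUSG00000020325, plus strand of chr10:79777272-79782630) encodes a relative of follistatin that also binds activins and myostatin. It had the lowest values of the 9 genes, 39.4, 21.2, 10.4, 34.7, and 42.7 in WT, 21.9, 19.4, 20.5, 16.7, and 23.2 in Tbr1+/K228E, and 35.2, 23.1, 36.9, 26.1, and 26.3 in Tbr1K228E/K228E embryos. The WT embryos spanned both mutant groups, with a coefficient of variation of 45.6%. Between homozygous and heterozygous mice, 4 of 5 embryos were above all heterozygous embryos and the log2 fold change was 0.50 (95% interval -0.16 to 1.16; exact permutation p = 0.0159), which did not pass correction in limma (adjusted p = 0.996). Against WT mice, Fstl3 had log2 fold changes of 0.12 in homozygous and -0.38 in heterozygous mice (exact permutation p = 0.341 for the latter).

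Fstl4 (ENSMUSG00000036264, plus strand of chr11:52764634-53188538), which encodes a further secreted protein with a follistatin-type domain, had the largest difference toward a lower mean in homozygous mice. Its normalized read counts were 219, 246, 176, 313, and 196 in WT, 200, 152, 237, 182, and 198 in Tbr1+/K228E, and 177, 187, 153, 199, and 139 in Tbr1K228E/K228E embryos. Fstl4 differed from WT mice by -0.41 on the log2 scale (standard error 0.16) in homozygous mice, in which 2 of 5 embryos were below all WT embryos. The difference was -0.23 in heterozygous mice (exact permutation p = 0.246) and -0.18 between the mutant genotypes (exact permutation p = 0.246).

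The type II receptors bind the activins directly. Acvr2a (ENSMUSG00000052155, plus strand of chr2:48814109-48903269) had normalized read counts of 4371, 4659, 4993, 5523, and 5510 in WT, 4542, 4924, 4874, 5313, and 4912 in Tbr1+/K228E, and 4709, 5472, 5492, 5532, and 5001 in Tbr1K228E/K228E embryos. Acvr2b (ENSMUSG00000061393, plus strand of chr9:119402118-119434995) had 632, 678, 727, 621, and 685 in WT, 643, 617, 667, 669, and 653 in Tbr1+/K228E, and 607, 685, 712, 744, and 675 in Tbr1K228E/K228E embryos. The genotypes overlapped for both genes. Log2 fold changes between homozygous and WT mice were 0.07 (95% interval -0.08 to 0.21) for Acvr2a and 0.03 (95% interval -0.10 to 0.16) for Acvr2b, and no exact permutation p in the other comparisons of these receptors was below 0.167.

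Per kilobase of exon, the level in WT mice was highest for Acvr2a with 881 normalized read counts per kilobase and was 636 for Fstl1, 229 for Fstl5, 170 for Acvr2b, 133 for Inhbb, 52.5 for Fstl4, 22.5 for Fst, 13.8 for Inhba, and 12.1 for Fstl3. There were 4 neighboring pairs in this order that overlapped among WT embryos, namely Acvr2a and Fstl1, Acvr2b and Inhbb, Fst and Inhba, and Inhba and Fstl3. Inhbb was thus the more abundant activin subunit, and Acvr2a the more abundant of the 2 receptors, per length in every embryo. Per length, Fst also exceeded Inhba in all 15 embryos. Without division by exon length, Fst was below Inhba in some embryos, such as WT replicate 3 (93.7 against 130 normalized read counts).

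**Figure D2:**
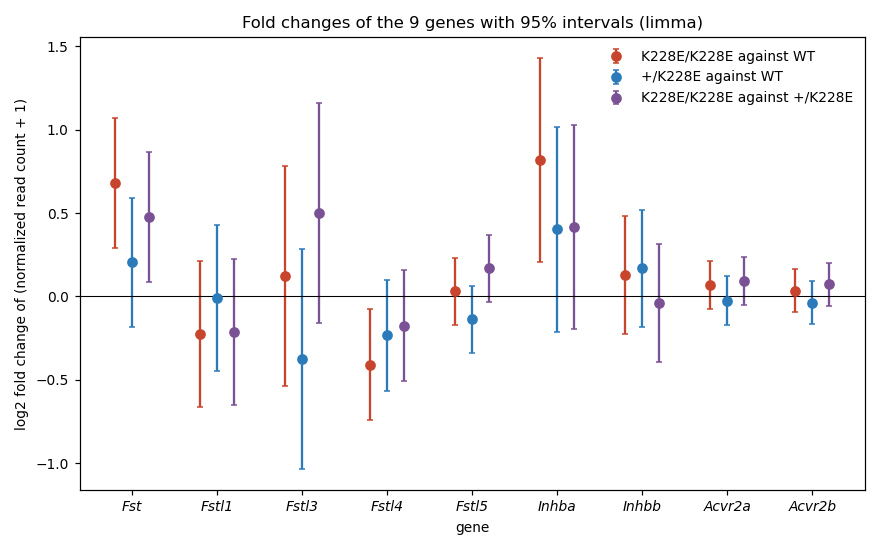
Log2 fold changes of normalized read counts plus 1 (y axis) of the 9 genes (x axis) in 3 comparisons, with 95% intervals from limma. The values of K228E/K228E against WT are a description; they are highest for Inhba (0.82) and Fst (0.68), lowest for Fstl4 (-0.41), and near 0 for the receptors.

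At an adjusted p under 0.05 in limma, 0 of the 9 genes were called in Tbr1K228E/K228E relative to WT mice, where 0.127% of the 16507 tested genes were. At an unadjusted p under 0.05, Fst, Inhba, and Fstl4 were past the threshold there, against 3.23% of all tested genes, and since this comparison was known when the genes were chosen, nothing is read from that count. None of the 9 genes separated these genotypes without overlap, as did 0.594% of all genes. In Tbr1+/K228E relative to WT mice, 0 of 9 genes were called at either the adjusted (0% of all genes) or the unadjusted threshold (1.79% of all genes), and 0 separated without overlap (0.26%). Between the mutant genotypes, 0 of 9 were called (0.0788%), 1 gene, Fst, had an unadjusted p under 0.05 (3.3%), and 0 separated without overlap (0.878%). No difference between the sexes in a mutant effect passed correction for any of the 9 genes (lowest adjusted p = 0.752, limma interaction term). With 3 females and 2 males per genotype, this test could miss large differences. For homozygous relative to WT mice, the male minus female estimates were 0.97 for Inhba and -1.10 for Fstl3 on the log2 scale. Alike effects in the sexes are therefore not concluded.

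Other genes of the pathway were taken from lists by role, of which 67 of 68 were in the table and 59 passed the requirement on low values. At the adjusted threshold of limma, 0 of the 59 were called in each of the 3 comparisons. At an unadjusted p under 0.05, 3 were higher and 2 lower in Tbr1K228E/K228E than in WT mice, 0 were higher and 2 lower in Tbr1+/K228E than in WT mice, and 3 were higher and 1 lower in Tbr1K228E/K228E than in Tbr1+/K228E mice. Over all tested genes, the shares past the unadjusted threshold in these comparisons were 3.23%, 1.79%, and 3.3%. Past the adjusted threshold they were 0.127%, 0%, and 0.0788%. Nothing is read from pathway counts this small. The median log2 fold changes of the 59 genes were -0.04, -0.01, and -0.02, beside medians of -0.002, -0.002, and 0.0004 of all tested genes.

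Among the receptors, Acvr1c, which encodes ALK7, a type I receptor for activin B and Nodal, had the smallest p of the type I receptors in all 3 comparisons. Its normalized read counts were 85.7, 111, 150, 83.2, and 100.004 in WT, 106, 163, 127, 135, and 113 in Tbr1+/K228E, and 177, 123, 258, 155, and 206 in Tbr1K228E/K228E embryos. Once more 4 of 5 homozygous embryos exceeded all WT embryos and replicate 2 did not. Its log2 fold change was 0.78 (standard error 0.20) in homozygous relative to WT mice (limma, adjusted p = 0.446), 0.30 in heterozygous relative to WT mice, and 0.48 between the mutant genotypes (limma, adjusted p = 0.996 for the last). With the forebrain score as a covariate, chosen after seeing the data, Acvr1c was the 1 pathway gene past the adjusted threshold. Acvr1c (chr2:58267453-58357895) is on the same chromosome as the targeted gene Tbr1 (chr2:61802930-61814114), and the part of this position in its values was not tested. Of the other type II receptors, Tgfbr2, the receptor for TGF-beta, had the smallest p against WT and against heterozygous mice, with log2 fold changes of -0.29 and -0.33 in homozygous mice, and Bmpr2, a BMP receptor, in heterozygous against WT mice, with 0.01.

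Among the ligands, Mstn, which encodes myostatin, a ligand that follistatin also blocks, had low normalized read counts of 8.15, 8.42, 7.59, 14.9, and 13.1 in WT, 8.36, 10.9, 16.7, 8.21, and 7.14 in Tbr1+/K228E, and 20.8, 11.0, 21.7, 15.8, and 18.5 in Tbr1K228E/K228E embryos. Homozygous replicate 2 was again the one inside the WT range. Its log2 fold change was 0.71 in homozygous relative to WT mice and 0.74 between the mutant genotypes. Nodal had the smallest p of the ligands in heterozygous mice, with a log2 fold change of -0.23 at mean normalized read counts of 5.14 in Tbr1+/K228E and 6.10 in WT mice, the lowest of the genes named here. Inha, the alpha subunit that turns activin into inhibin, had a mean of 779 ± 42.1 (SD, n = 5) in WT, 757 ± 54.7 in Tbr1+/K228E, and 802 ± 92.3 in Tbr1K228E/K228E mice.

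Downstream of the receptors, Pmepa1, a target of TGF-beta and activin signals that also dampens them, had values of 1218, 1165, 1215, 943, and 1047 in WT, 1141, 1171, 1128, 1245, and 1089 in Tbr1+/K228E, and 987, 855, 1066, 896, and 1047 in Tbr1K228E/K228E embryos. Every homozygous embryo was below every heterozygous embryo. It was the 1 gene of the 59 tested pathway genes that separated the mutant genotypes without overlap. Of all tested genes 0.878% did so, and nothing is read from this count. Between these genotypes the difference was -0.25 on the log2 scale, which did not pass correction (limma, adjusted p = 0.907), and it was -0.20 relative to WT mice, where the embryos overlapped. The other genes with the smallest p in their role had log2 fold changes of -0.07 (Smad1), 0.09 (Skil), -0.40 (Igsf1), and -0.23 (Smoc1) in homozygous relative to WT mice. In heterozygous relative to WT mice the values were 0.29 (Smad6, an inhibitory SMAD), 0.09 (Ski), 0.13 (Id2), -0.26 (Dand5, a Nodal antagonist), and -0.15 (Tmeff2). Between the mutant genotypes they were -0.47 (Smad6), -0.31 (Tgif1), 0.24 (Dand5), and 0.17 (Tmeff2), and the adjusted p of all of these genes was above 0.9 in limma.

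To see how the genes varied among embryos apart from genotype, the mean of each genotype was removed from the log2 values. Over the 15 embryos, deviations of Fst correlated with those of Inhba (Pearson's r = 0.73, permutation p = 0.00243, Benjamini–Hochberg adjusted p = 0.0194 over 8 relations; Spearman's rho = 0.49, permutation p = 0.0683, adjusted p = 0.473) and of Inhbb (r = 0.68, permutation p = 0.00712, adjusted p = 0.0285; rho = 0.37, permutation p = 0.177, adjusted p = 0.473). Both rest on WT replicate 4 and Tbr1K228E/K228E replicate 2, since r was 0.30 and 0.08 without these embryos. For every r without 2 embryos, genotype means were not computed again, whereas they were for r with 1 embryo left out. The other 6 relations of Fst had r between -0.35 and 0.30.

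The deviations of each gene were also compared with those of Tbr1 and of 4 marker lists, which made 45 relations, chosen after seeing the data. Of these, 8 passed Benjamini–Hochberg correction in both measures. Inhba followed Tbr1 (r = 0.92, permutation p = 2.0e-05, adjusted p = 3.0e-04; rho = 0.84, permutation p = 1.6e-04, adjusted p = 0.0036), with the same sign of deviation in 14 of 15 embryos and r = 0.87 without the 2 embryos farthest from the median. Inhbb followed Tbr1 less closely (r = 0.83, permutation p = 1.7e-04, adjusted p = 0.00153; rho = 0.72, permutation p = 0.00361, adjusted p = 0.0232; r = 0.63 without the same 2 embryos). For Fst and Tbr1, r was 0.67 (permutation p = 0.00554, adjusted p = 0.0191) but rho was 0.49 (permutation p = 0.0655, adjusted p = 0.129), and r was 0.34 without those embryos.

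**Figure D3:**
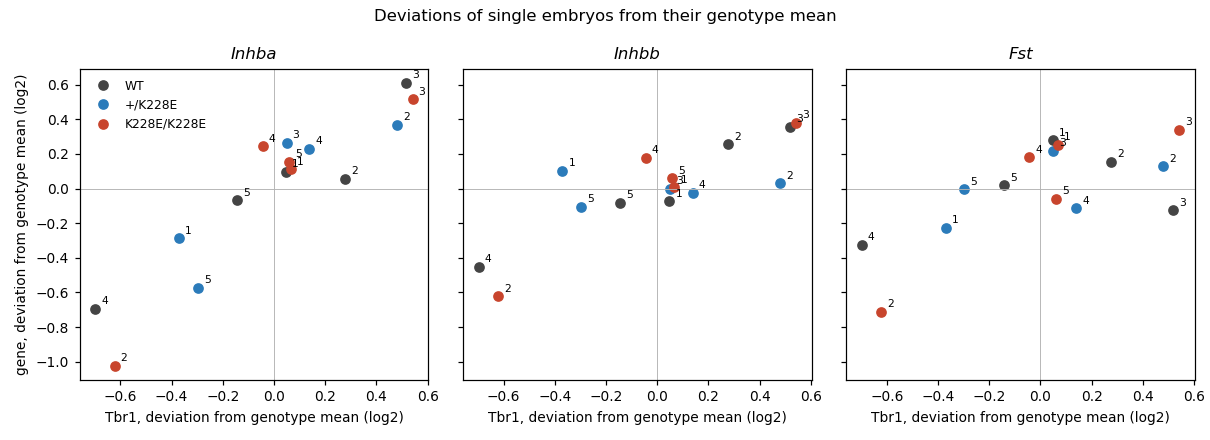
Deviations of Inhba, Inhbb, and Fst (y axes, log2) from the genotype mean against those of Tbr1 (x axes, log2) in 15 embryos, colored by genotype and numbered by replicate. WT replicate 4 and K228E/K228E replicate 2 lie lowest on both axes, and r is 0.92, 0.83, and 0.67 for the 3 genes, and 0.87, 0.63, and 0.34 without these embryos.

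The forebrain score, which moves with the same 2 embryos, gave r = 0.90 with Inhba (permutation p = 2.0e-05, adjusted p = 3.0e-04; rho = 0.80, permutation p = 5.4e-04, adjusted p = 0.0063) and 0.87 with Inhbb (permutation p = 1.3e-04, adjusted p = 0.00146; rho = 0.71, permutation p = 0.00413, adjusted p = 0.0232), and r was 0.80 and 0.69 without these embryos. Fstl5 went the opposite way (r = -0.72, permutation p = 0.00294, adjusted p = 0.012; rho = -0.78, permutation p = 9.1e-04, adjusted p = 0.00819; r = -0.64 without them). How much of these relations is the amount of cortex in a sample was not tested.

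Fstl1 followed the meningeal score. Since this score fell into separate groups of embryos, the relation was computed over the 12 embryos with high scores (r = 0.96, permutation p = 1.0e-05, the smallest that the permutations can give, adjusted p = 3.0e-04; rho = 0.91, permutation p = 5.0e-05, adjusted p = 0.00225). It was 0.94 without the 2 embryos farthest from the median. Acvr2a had an inverse relation to genes of dividing cells, such as Mki67 (15 embryos, r = -0.70, permutation p = 0.00409, adjusted p = 0.0153; rho = -0.76, permutation p = 0.00173, adjusted p = 0.013; r = -0.65 without the 2 farthest embryos). Acvr2b had r = 0.87 with the Hox score (permutation p = 0.00151, adjusted p = 0.009; rho = 0.93, permutation p = 5.6e-04, adjusted p = 0.0063; r = 0.82 without the 2 farthest) over 9 embryos, in all of which the mean log2 level of the Hox genes was at most 1.31. These 9 embryos were taken after a gap was seen in the scores, and were centred on their own genotype means. Several of the Hox genes, such as Hoxb4 and Hoxc5, had a median normalized read count under 1, so these low scores lie near the floor. In the other 6 embryos, with Hox levels of 2.76 to 7.11, the deviations of Acvr2b from its genotype means were between -0.17 and 0.02, that is, near 0 or negative.

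**Figure D4:**
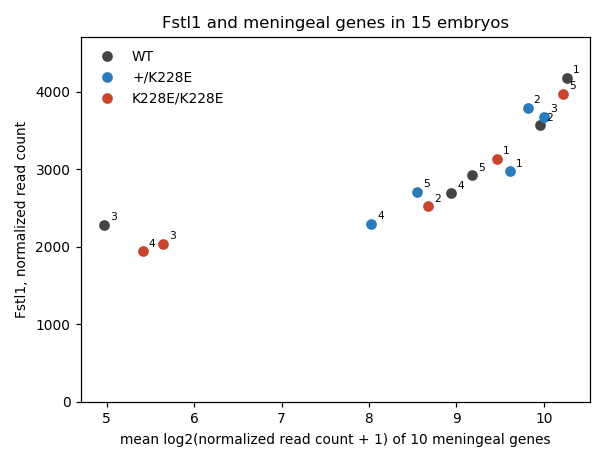
Normalized read count of Fstl1 (y axis, linear from 0) against the mean log2 level of 10 meningeal genes (x axis) in 15 embryos, colored by genotype and numbered by replicate. Among the 12 embryos with scores of 8.03 or more, Fstl1 is higher where the score is higher (r = 0.96 for deviations from genotype means), and the 3 embryos with scores below 5.7 have 1939 to 2285 normalized read counts.

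As a description of likeness, 13541 genes whose mean reached 50 were ranked by Pearson's r of their deviations with those of Fst and of Inhba over the 15 embryos. The genes most like Fst were Imp4 (0.88), Gm26920 (0.87), Pkig (0.84), Ints3 (0.83), and U2af1 (0.82), and Inhba ranked 88. Among those most like Inhba were Dync1i1 (0.95), Ccbe1 (0.95), Grid2ip (0.93), and Lancl3 (0.93), with Tbr1 at rank 9, Inhbb at rank 86, Acvr1c at rank 149, and Fst at rank 554. The same 15 libraries and their tissue composition underlie all of these values.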

How the data were processed

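RNA-Seq libraries of 15 E16.5 brains were compared. Per the labels and the methods, the authors estimated transcript abundance with Salmon 0.11.2 on GRCm38 with GC bias correction, imported it to genes with tximport in R 3.5.3, divided the counts by DESeq2 1.22.2 size factors, and deposited the resulting normalized signal, a normalized read count per gene and embryo. These values are not whole reads, so no count model was fitted. Of 19475 identifiers, 19452 were paired with a symbol, and coordinates and exon lengths are from GENCODE M21.

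Genotypes were compared with limma 3.58.1 in R 4.3.3 (eBayes with a trend) on log2(value + 1), which understates changes of low genes, in one fit of 15 embryos and 16507 genes whose mean reached 5, with Benjamini–Hochberg correction and a threshold of 0.05. Single genes were compared by two-sided exact permutation tests, and correlations by 100000 permutations, in Python 3.11.15 with scipy 1.17.1. The permutations of the correlations moved deviations freely across genotypes. Removing genotype means left fewer free values than embryos, so the p of the correlations can be too small. The code was tested on simulated data. Promoter sequences are from RefSeq, with 8 of 9 genes matched. Groups came from the sample titles, and whether the embryos came from separate litters is not stated.

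The members, the pathway lists, and the marker lists were chosen with earlier results of these data known. The genes named are the 9 members, Tbr1, in each role list the gene with the smallest p in each comparison, any pathway gene past the threshold, and the 5 genes most like Fst and Inhba, of which 1 is not reported here. Inha was named in addition, after its values were seen. Alternatives were other pseudocounts, filters, scalings, covariates, variance models, and an empirical null, a fit of 2 genotypes alone, the replicate number as a block, and leaving out embryos.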

Additional observations from a re-analysis of the deposited data

How the results depend on the processing

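The number of the 9 genes called stayed at 0 in every comparison and alternative except without Tbr1K228E/K228E replicate 2, where Fst was called in homozygous relative to WT mice, so that the range over embryos left out in turn was 0 to 1. Of the 59 pathway genes, 1 (Acvr1c) was called there with the forebrain score as a covariate, and 0 otherwise. Counts over all genes moved more: 21 in homozygous relative to WT mice became 12 in a fit of these genotypes alone, 42 with the empirical null, 46 with the forebrain score, and as few as 12 with 1 embryo left out. In heterozygous relative to WT mice 0 became 1 with the forebrain score. Between the mutant genotypes 13 became 32 with the forebrain score and 6 to 8 with 1 embryo left out. Directions that reversed were all of small differences. For Fstl1 in heterozygous relative to WT mice the log2 fold change was 0.0076 with the Hox score and -0.12 to 0.10 with 1 embryo left out, and between the mutant genotypes 0.018 with the meningeal score. For Acvr2a in heterozygous relative to WT mice it was 0.012 without homozygous replicate 2 and WT replicate 4, and -0.072 to 0.012 with 1 embryo left out. For Inhbb between the mutant genotypes it was 0.023 with the forebrain score, 0.117 without those 2 embryos, and -0.13 to 0.117 with 1 left out. For Fstl3 and Fstl5 in homozygous relative to WT mice, leaving out 1 embryo gave -0.19 to 0.29 and -0.021 to 0.11. The correlation of Fst with Inhba was 0.304 and with Inhbb 0.081 without the 2 farthest embryos, and 0.453 to 0.860 and 0.315 to 0.807 with 1 left out. With Acvr2b it was 0.053 after upper quartile scaling, 0.201 after quantile normalization, and -0.173 to 0.211 with 1 left out, with Fstl1 it was -0.055 after quantile normalization, and with Fstl4 it was 0.316 without the 2 farthest embryos and -0.292 to 0.044 with 1 left out. The cause of these changes was not tested. The forebrain score and the joint exclusion of 2 embryos were chosen after seeing the data.

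Same-numbered embryos of homozygous and WT mice correlated with r between 0.024 and 0.51, and signs were mixed in the other comparisons, so the numbers were not taken to pair embryos. With the replicate number as a block, 0 of the 9 genes and 0 of the pathway genes were called in each comparison, and the count over all genes between the mutant genotypes was 2 in place of 13. Depth limits mainly the genes with the lowest values, Nodal, Mstn, and Fstl3, and the values carry no whole reads from which an interval could be computed.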
